A study of Rattus norvegicus with 19 samples.

Results

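Translation initiation factors are the proteins that bring the small ribosomal subunit, the initiator tRNA and an mRNA together at a start codon. They were taken as every probe set annotated to exactly 1 gene whose symbol begins with Eif1 to Eif6, leaving out the eIF2 kinases (Eif2ak). This gave 74 probe sets of 44 genes, of 13811 genes on both array types together: 47 of 15923 probe sets (42 genes) on the first array type, and 27 of 15333 (20 genes) on the second. By the digit in the symbol, 4 genes fell in the eIF1 group, 10 in eIF2, 11 in eIF3, 15 in eIF4, 3 in eIF5 and 1 in eIF6. All 47 probe sets of the first type were bright enough to be tested (mean at or above the 30th percentile of all probe sets), as were 23 of the 27 on the second. The 4 left out were 1 probe set each of Eif2s3 and Eif3h and both probe sets of Eif5a2, a gene measured on the second type only, so 43 of the 44 genes were tested.

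Adult rats (Rattus norvegicus) were fasted overnight, given 1 intraperitoneal injection and killed 8 h later for liver RNA. PCN rats received pregnenolone-16α-carbonitrile at 100 mg/kg, a steroid that in rodents switches on the pregnane X receptor, a nuclear receptor for foreign compounds. Corn oil rats received corn oil, under the same fast and at the same 8 h. The labels used here give no strain or sex, and they describe each replicate as biological. The study asked whether PCN, beyond inducing drug metabolism, switches on genes that counter stress. Each liver was hybridised to 2 Affymetrix expression arrays: the first type had 5 PCN and 5 corn oil arrays, and the second had 5 PCN and 4 corn oil arrays, corn oil replicate 2 being absent from the samples analysed here. Arrays of both types with the same group and replicate number were taken to be the same animal.

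In initiation, eIF2 carries the initiator tRNA as a GTP complex and eIF2B recharges it. The multisubunit eIF3 sits on the small subunit as a scaffold, eIF1 and eIF1A tune start codon choice, and the cap-binding eIF4F complex recruits the mRNA. Subunit joining needs eIF5B, and eIF6 keeps free large subunits apart from small ones. In liver, fasting, amino acid supply and stress are known to act on this machinery through eIF2 phosphorylation and through the eIF4E-binding proteins, neither of which an mRNA array measures. In whole liver RNA, fewer cells of a type and less RNA per cell cannot be told apart.

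The values are log2 expression as deposited, on a separate scale for each array type, and levels of different probe sets are not compared. The tissue label was checked with hepatocyte genes: 9 were measured on the first type, and Alb, encoding albumin, averaged 15.14 in PCN and 15.15 in corn oil livers, the 100th percentile of brightness. Of the marker genes of 8 liver and blood cell types, limma called 0 of 34 on the first type and 0 of 9 on the second. At an unadjusted p under 0.05, 4 were higher and 3 lower on the first type, beside 11% and 6.71% of all probe sets. On the second 3 were higher and 2 lower, beside 13.2% and 14.1% of all. The red cell list had a median log2 fold change of -0.39 over 3 genes on the first type. Its array means were 10.22 to 10.90 in PCN and 10.71 to 11.005 in corn oil livers. Both lymphocyte genes tested on the second type were lower at that p, with array means of 6.76 to 6.91 in PCN and 6.95 to 7.07 in corn oil livers. The 1 neutrophil gene tested on the first type was higher at that p (0.58). The part of these cell types in the results was not tested. Pairs of arrays of 1 type correlated at 0.972 to 0.996 and 0.979 to 0.994. Corn oil replicate 2 of the first type had the lowest mean correlation with the other arrays, 0.976 against 0.983 to 0.989. Corn oil replicate 1 of that type correlated with the PCN arrays at a mean of 0.9876 and with its own group at 0.9875. On the second type PCN replicate 5 correlated with the corn oil arrays at a mean of 0.9895 and with its own group at 0.9878. Its median over all probe sets was 6.32, against 6.25 to 6.27 in PCN replicates 1 to 4 and 6.32 to 6.33 in corn oil. The array medians thus moved with treatment on that type, apart from this array. Making all medians equal lifted PCN values against corn oil: the median log2 fold change of all probe sets went from -0.03 to 0.02. The 7 probe sets described below still passed the test, but this scaling favours rises and cannot show that the calls do not depend on scaling.

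Initiation factor mRNAs lay mostly above the corn oil level after PCN, by small amounts. On the first type 2 probe sets rose, those of Eif3j and Eif2s1, and 0 fell, at an adjusted p under 0.05 in limma, a linear model with variances shared across probe sets. This was 4.26% of the 47, beside 3.25% of all 11106 probe sets tested (2.31% higher and 0.945% lower), so the share called was near that of the array as a whole. At an unadjusted p under 0.05, 14 of the 47 were higher and 1 lower, or 29.8% and 2.13%, beside 11% and 6.71% of all probe sets. A positive log2 fold change was found for 36 of the 47 (76.6%, beside 50% of all), and their median was 0.16 beside 1e-04 for all. The PCN and corn oil values did not overlap for 6 members, all higher after PCN (12.8%, beside 6.04% of all probe sets in either direction and 3.99% higher and 2.05% lower).

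Of the 23 member probe sets of the second type, 7 rose, from 5 genes (Eif1a, Eif3c, Eif3j, Eif3l and Eif4g1), and 0 fell. This was 30.4%, beside 5.4% of all 10693 probe sets tested (3.76% higher and 1.64% lower). At an unadjusted p under 0.05, 13 were higher and 0 lower (56.5% and 0%, beside 13.2% and 14.1% of all). A positive value was found for 21 of 23 (91.3%, beside 41.1% of all), with a median of 0.31 beside -0.03 for all. Groups did not overlap for 6 members, all higher (26.1%, beside 10.4% of all probe sets in either direction and 5.06% higher and 5.32% lower).

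**Figure D1:**
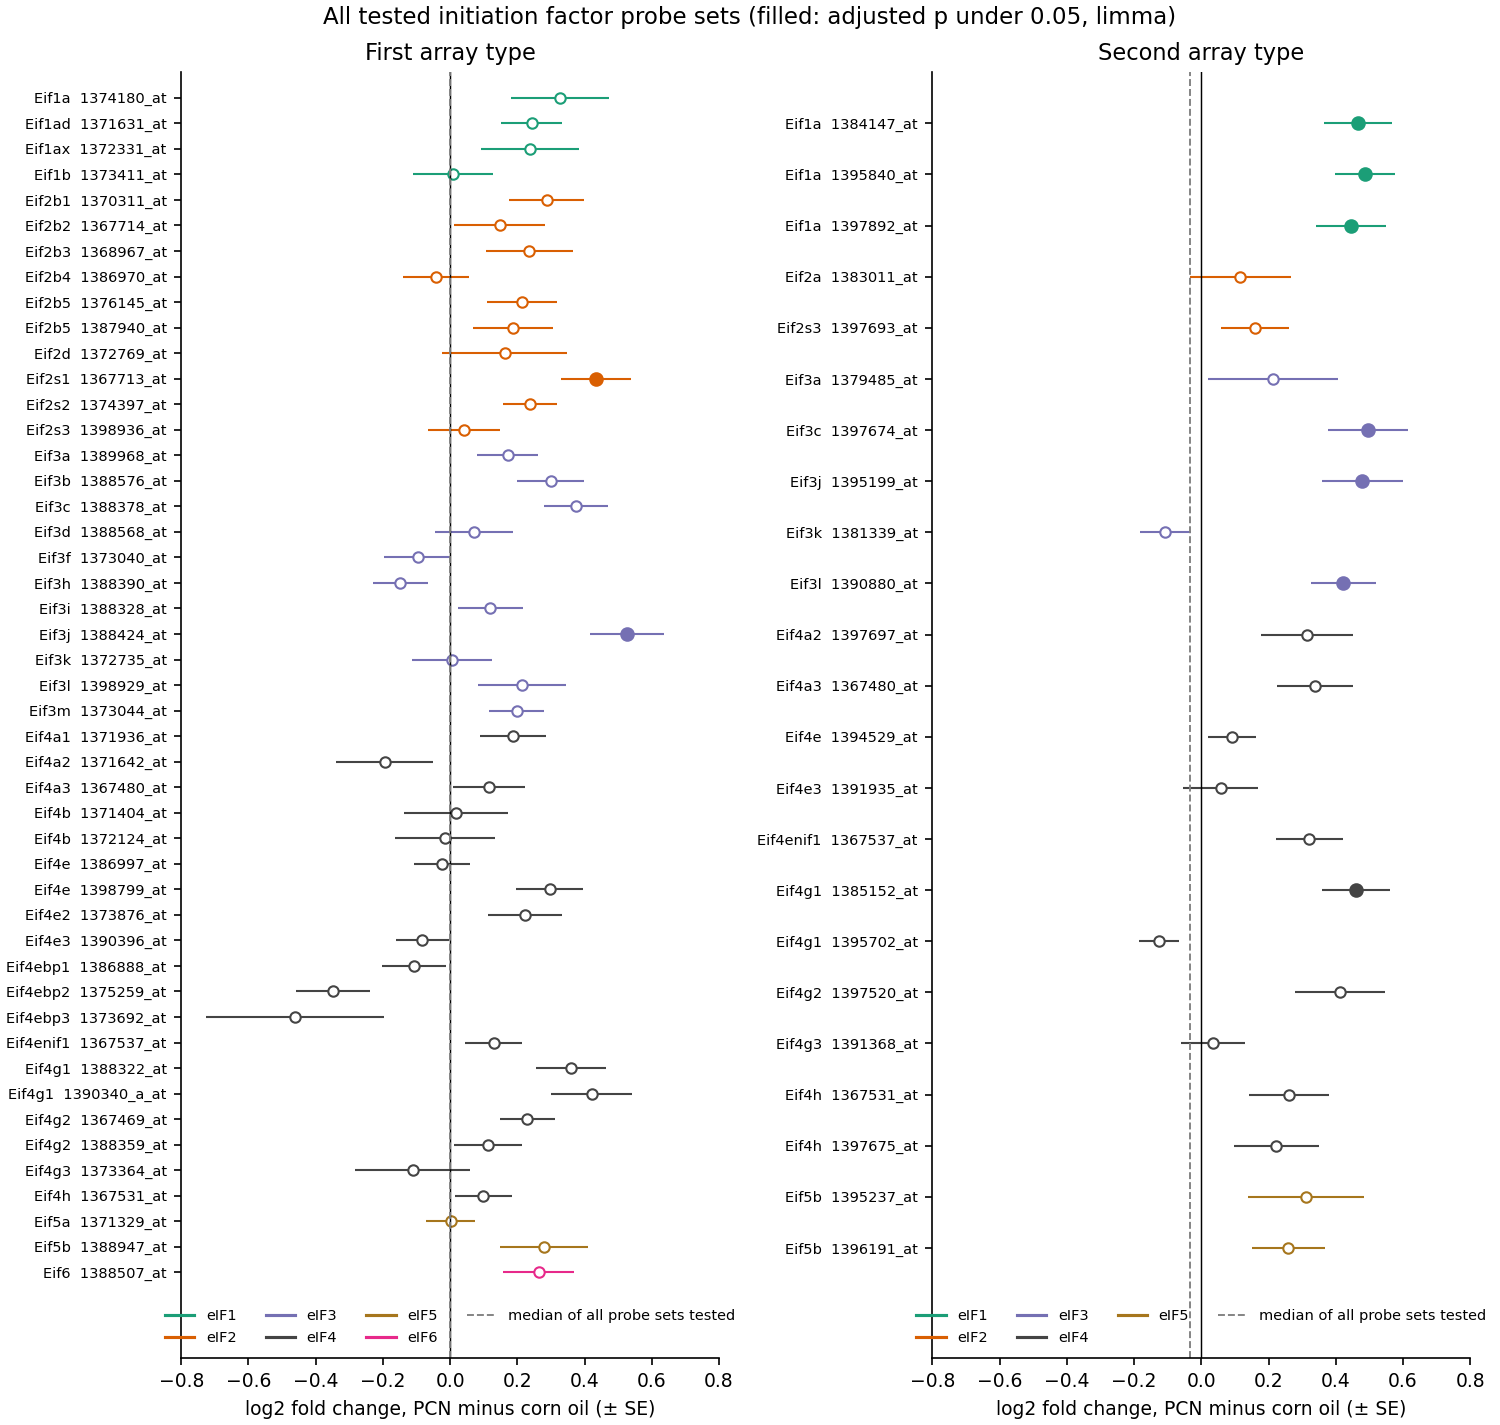
Log2 fold change, PCN minus corn oil, with its standard error for each of the 47 initiation factor probe sets tested on the first array type (left) and the 23 on the second (right), coloured by eIF group, with filled points at an adjusted p under 0.05. Most points lie right of 0, 36 of 47 and 21 of 23, with Eif4ebp2 and Eif4ebp3 at the far left of the first panel.

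The counts changed with single arrays and scaling, and on the second type the share called also went with brightness. Initiation factors were bright: the median member had a brightness percentile of 87.8 on the first type and 87.2 on the second. Among the 1070 brightest probe sets tested on the second type, 14.6% of all probe sets were called higher with a median of 0.20, and the 9 members there had 4 calls and a median of 0.41. Among the 1111 brightest of the first type, 4.41% of all probe sets were called higher with a median of -0.01, and the 9 members there had 0 calls and a median of 0.10. Without PCN replicate 5, 10 members of the second type were called, and without corn oil replicate 4 the count was 0. Without corn oil replicate 2, the first type had 1 call. The share of all probe sets called under these settings is not given here, so the changes cannot be called particular to initiation factors. Centring the arrays on the 100 probe sets common to both types removed all 7 calls of the second type and gave 2 falls in their place. That setting put the median of the members at 0.03 and that of all probe sets at -0.31; it moves all probe sets of an array alike, so the distance of 0.34 between these medians cannot change under it. Quantile normalization and cyclic loess, which can change that distance, both gave 0.19.

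Of the eIF3 genes, Eif3j rose on both array types. Its product is a loosely held eIF3 subunit at the mRNA channel of the small ribosomal subunit. On the first type Eif3j (1388424_at) read 10.67, 10.53, 10.89, 10.82 and 10.62 in PCN replicates 1 to 5, against 10.42, 9.98, 10.31, 10.05 and 10.14 in corn oil replicates 1 to 5. Every PCN liver was above every corn oil liver, and corn oil replicate 1 came closest. The means were 10.71 ± 0.15 in PCN and 10.18 ± 0.18 in corn oil livers (SD, n = 5 each), a rise of 1.44-fold (log2 fold change 0.53 ± 0.11 SE, adjusted p = 0.0266, limma). Eif3j on the second type (1395199_at) read 8.15, 8.21, 8.03, 7.80 and 7.66 in PCN, against 7.26, 7.51, 7.58 and 7.62 in corn oil replicates 1, 3, 4 and 5. The groups again did not overlap, with PCN replicate 5 just above corn oil replicate 5, and the rise was 1.39-fold (0.48 ± 0.12 SE, adjusted p = 0.0419, limma). Both array types share the animals, so the second measurement repeats the assay and not the experiment. The first call rested on 5 arrays, PCN replicates 1, 3 and 4 and corn oil replicates 4 and 5: leaving out any of these lifted the adjusted p over 0.05, to 0.0779 at most. With 1 array left out at a time, the second call held 1 time of 9, without PCN replicate 5, and the adjusted p reached 0.121.

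Eif3c, which encodes a core scaffold subunit of eIF3, rose on the second type. Probe set 1397674_at read 9.49, 9.47, 9.17, 9.26 and 9.13 in PCN and 8.58, 9.07, 8.69 and 8.89 in corn oil livers, with no overlap. The rise was 1.41-fold (0.50 ± 0.12 SE, adjusted p = 0.0371, limma). Eif3c on the first type (1388378_at) read 10.96, 11.02, 11.02, 11.28 and 10.87 in PCN and 10.67, 10.66, 10.81, 10.58 and 10.56 in corn oil livers. These values did not overlap either, and the difference of 0.37 ± 0.10 (SE) just missed the threshold (adjusted p = 0.0561, limma).

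Eif3l, a peripheral subunit, rose 1.34-fold on the second type (0.42 ± 0.10 SE, adjusted p = 0.0325, limma). Its values there (1390880_at) were 10.57, 10.36, 10.46, 10.26 and 10.28 in PCN, all above the 9.82, 10.06, 9.95 and 10.02 of corn oil livers. Its first-type probe set (1398929_at) overlapped between the groups, with 11.47, 11.10, 11.54, 11.59 and 11.54 in PCN and 11.44, 11.06, 11.51, 11.21 and 10.95 in corn oil livers (0.21 ± 0.13 SE, adjusted p = 0.439, limma). The other eIF3 subunits of the first type did not pass the test. Their log2 fold changes ran from -0.15 for Eif3h to 0.30 for Eif3b, a core RNA-binding subunit, and Eif3f was also negative at -0.10. The eIF3 median was 0.17 over 11 probe sets of the first type and 0.42 over 5 of the second, where Eif3k was the 1 negative value (-0.11).

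Among the eIF2 genes, Eif2s1 rose on the first type, the type on which it was measured. It encodes the alpha subunit, the one phosphorylated by the eIF2 kinases under stress. Eif2s1 (1367713_at) read 10.27, 10.11, 10.52, 10.45 and 10.41 in PCN and 9.95, 9.93, 10.02, 9.69 and 9.98 in corn oil livers. No values overlapped, and PCN replicate 2 came closest to the corn oil livers. The means were 10.35 ± 0.16 in PCN and 9.92 ± 0.13 in corn oil livers (SD, n = 5 each), a rise of 1.35-fold (0.43 ± 0.10 SE, adjusted p = 0.0443, limma). The call was close to the threshold: with 1 array left out at a time it held 1 time of 10, without PCN replicate 2, and the adjusted p reached 0.114.

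Eif2s2, the beta subunit, differed by 0.24 ± 0.08 (SE, adjusted p = 0.139, limma). Its values did not overlap, at 11.12, 10.94, 11.12, 11.16 and 10.93 in PCN and 10.77, 10.78, 10.84, 10.83 and 10.86 in corn oil livers. Eif2s3, the gamma subunit, had a log2 fold change of 0.04 on the first type. On the second its tested probe set (1397693_at) read 9.35, 9.08, 9.18, 8.99 and 8.92 in PCN and 8.82, 8.99, 8.94 and 9.05 in corn oil livers. These overlapped (0.16 ± 0.10 SE, adjusted p = 0.318, limma), and the sign turned to -0.04 after quantile normalization and to -0.12 after centring. The 6 probe sets of the 5 eIF2B genes, the exchange factor, had a median of 0.20 with 5 positive, 0 past the test and 1 higher at an unadjusted p under 0.05, and Eif2b4 was the negative one at -0.04. Eif2d and Eif2a, alternative carriers of the initiator tRNA, were at 0.16 on the first type and 0.12 on the second.

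Eif1a gave 3 of the 7 calls of the second type. Its product, eIF1A, helps the small subunit scan for a start codon. Probe set 1395840_at read 8.41, 8.24, 8.40, 8.30 and 8.04 in PCN and 7.70, 7.88, 7.82 and 7.76 in corn oil livers, a rise of 1.40-fold with no overlap (0.49 ± 0.09 SE, adjusted p = 0.0158, limma). Probe set 1397892_at read 9.09, 9.10, 9.21, 8.89 and 8.72 in PCN and 8.54, 8.56, 8.49 and 8.65 in corn oil livers, again with no overlap, and rose 1.36-fold (adjusted p = 0.0332, limma). The third, 1384147_at, read 7.37, 7.25, 7.47, 7.32 and 6.96 in PCN and 6.76, 7.0, 6.77 and 6.71 in corn oil livers and rose 1.38-fold (adjusted p = 0.0285, limma). There PCN replicate 5 lay below corn oil replicate 3, so the groups overlapped. These probe sets share a gene and its arrays and are not independent. With 1 array left out at a time, the call of 1395840_at held 8 times of 9 and was lost without corn oil replicate 4 (adjusted p = 0.0565), whereas each of the other 6 calls of the second type held 1 or 2 times, the omission of PCN replicate 5 among them.

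Eif1a on the first type (1374180_at) read 9.70, 9.70, 10.15, 10.18 and 10.14 in PCN and 9.70, 9.97, 9.72, 9.32 and 9.52 in corn oil livers. PCN replicates 3 to 5 were above every corn oil liver and replicates 1 and 2 were not, and the difference of 0.33 ± 0.15 (SE) did not pass the test (adjusted p = 0.268, limma). Eif1ax, a close relative of Eif1a, was at 0.24 (adjusted p = 0.441), and what a probe set of either gene reads of the other was not tested. Eif1ad, encoding a protein with an eIF1A-like domain, read 9.55, 9.62, 9.52, 9.86 and 9.48 in PCN and 9.41, 9.41, 9.30, 9.34 and 9.36 in corn oil livers. Its groups did not overlap, with a difference of 0.24 ± 0.09 (SE, adjusted p = 0.183, limma). Eif1b, a relative of eIF1, was at 0.01.

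**Figure D2:**
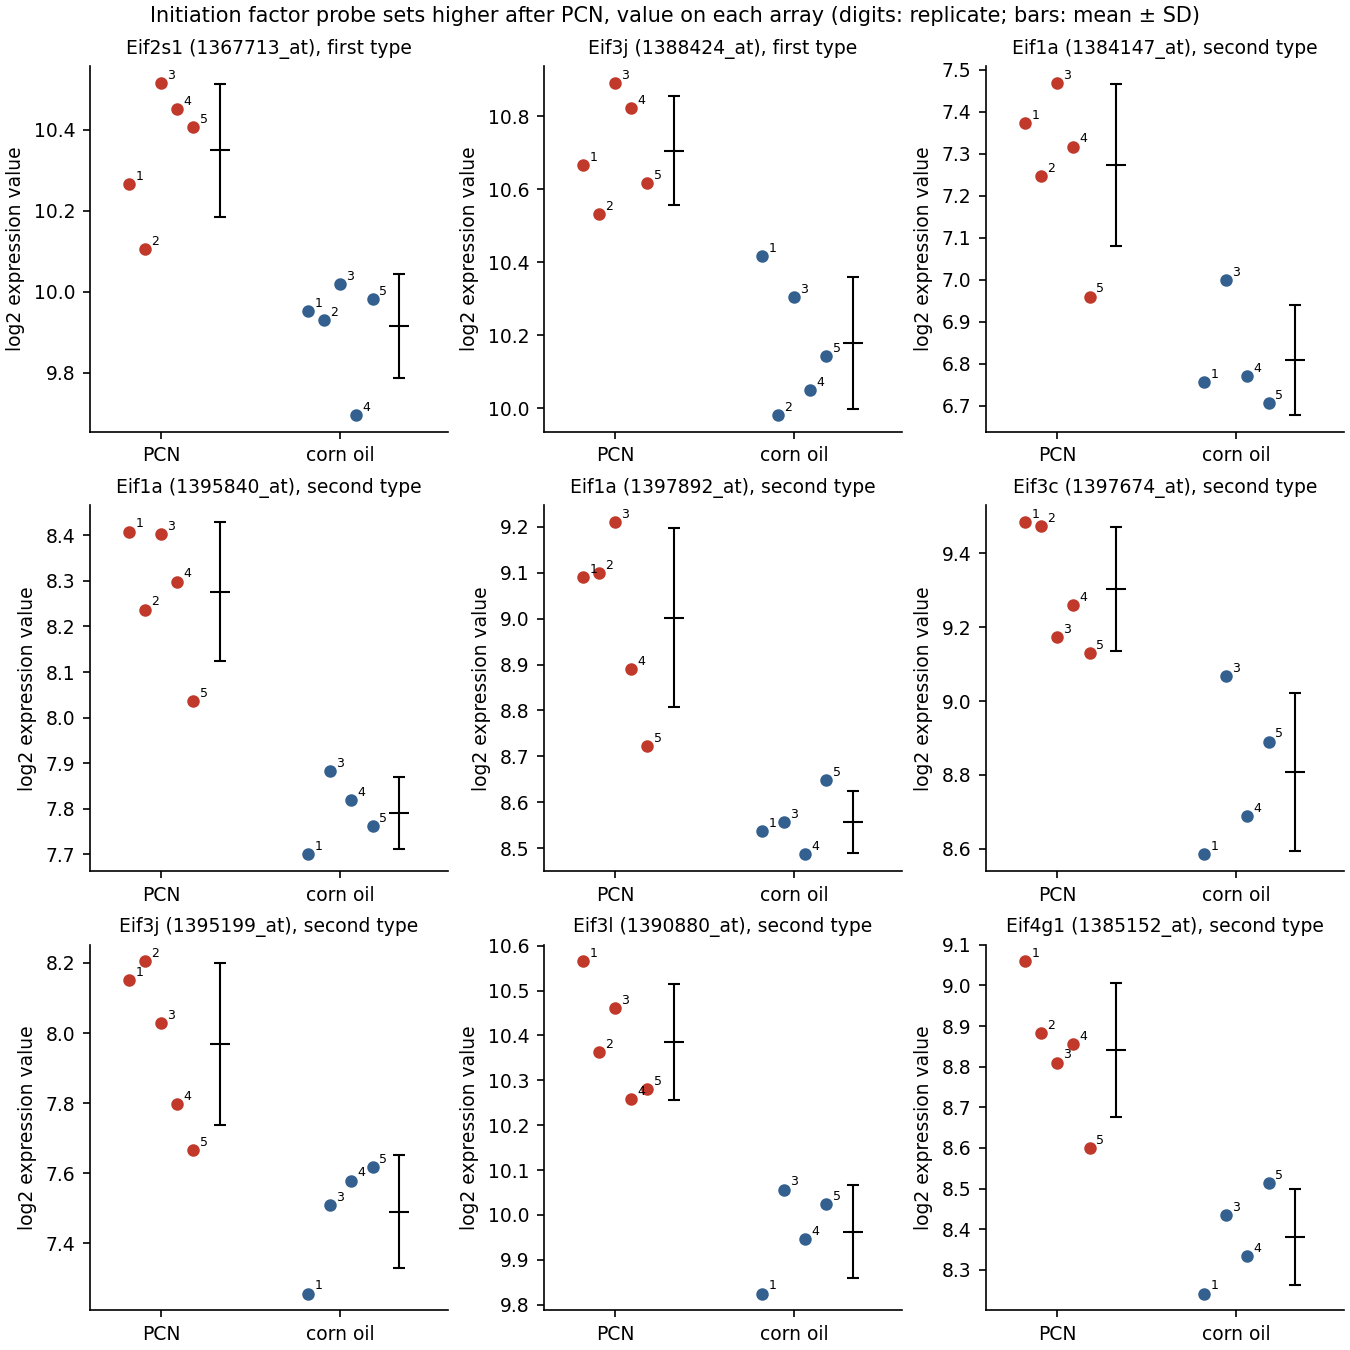
Log2 expression on each array, PCN left and corn oil right, for the 9 initiation factor probe sets that rose, with replicate numbers beside the points and bars for the mean ± SD. The groups overlap in the panel of Eif1a 1384147_at alone, and PCN replicate 5 is the lowest PCN point in 6 of the 7 panels of the second array type.

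The 6 genes that rose lie on 6 chromosomes of GRCr8: Eif1a on 18, Eif2s1 on 6, Eif3c on 1, Eif3j on 3, Eif3l on 7 and Eif4g1 on 11. The sequence before the start of 4 of them is shown, for what it shares. The windows come from RefSeq on GRCr8, run 5′ to 3′ along the gene's strand over the 200 bases before its start, and are given where that window lies outside the annotated gene. Capitals mark GGGCGG, the letters of a GC box, and CCGGAAG, the core letters bound by ETS factors, or their reverse complements. Eif1a lies at chr18:41512098-41512297 (plus strand), Eif2s1 at chr6:103405680-103405879 (plus), Eif3c at chr1:190583068-190583267 (minus) and Eif3j at chr3:129438515-129438714 (plus).
Eif1a: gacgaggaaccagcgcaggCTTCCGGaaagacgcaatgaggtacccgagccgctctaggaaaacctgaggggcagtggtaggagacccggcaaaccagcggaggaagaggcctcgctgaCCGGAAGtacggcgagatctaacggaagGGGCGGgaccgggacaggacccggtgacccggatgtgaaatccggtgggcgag
Eif2s1: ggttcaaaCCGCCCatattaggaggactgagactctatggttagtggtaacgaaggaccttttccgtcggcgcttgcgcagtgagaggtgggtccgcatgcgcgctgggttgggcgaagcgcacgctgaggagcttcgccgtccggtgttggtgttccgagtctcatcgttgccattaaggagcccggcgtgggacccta
Eif3c: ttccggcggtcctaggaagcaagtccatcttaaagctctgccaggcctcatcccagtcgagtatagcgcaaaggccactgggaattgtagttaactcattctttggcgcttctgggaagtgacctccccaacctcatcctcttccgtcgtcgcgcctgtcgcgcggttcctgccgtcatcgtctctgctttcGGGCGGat
Eif3j: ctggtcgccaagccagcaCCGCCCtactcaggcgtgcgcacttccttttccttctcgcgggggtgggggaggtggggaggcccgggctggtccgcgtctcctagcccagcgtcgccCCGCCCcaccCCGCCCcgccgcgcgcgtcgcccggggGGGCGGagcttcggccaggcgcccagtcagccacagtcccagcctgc

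All 4 windows held GGGCGG on either strand, 4 times in Eif3j, whose window was 76.5% G or C, and Eif1a held CCGGAAG as well, 2 times. The windows of the other 2 genes that rose, Eif4g1 and Eif3l, reach into the annotated span of the gene, unlike the 4 shown. Over 250 bases, the window of Eif4g1 held GGGCGG and that of Eif3l did not. Over 250 bases before the start, GGGCGG was present in 27 of the 40 member genes with a RefSeq window (67.5%, beside 32.4% of 27457 promoters), and CCGGAAG in 16 (40%, beside 7.74%). All motifs were searched on both strands. CACGTG, the E-box bound by Myc among others, was present in 8 (20%, beside 5.79%). TGATGNAA, the core letters of an ATF4 response element, was present in 1 (2.5%, beside 3.27%). AGTTCA repeated after 3 bases, a form bound by the pregnane X receptor, was present in 0 of 40 and in 2 of all 27457. At that rarity 0 of 40 carries no information on receptor sites, and other spacings or letters of the repeat were not searched. Member windows had a median G and C content of 59.8%, beside 52% for all, and 21 of the 40 reach into the annotated span of their own gene. Motif matches describe these letters and are not shown to be sites.

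The eIF4 group held values of both signs on the first type. There 11 of its 19 probe sets were positive and 8 negative, with a median of 0.10 (0.06 without corn oil replicate 2), the lowest of the 6 groups of that type, and the difference between groups was not tested. On the second type 10 of 11 were positive, with a median of 0.26. Eif4g1, encoding the eIF4G scaffold that joins the cap-binding protein to the ribosome, rose 1.38-fold on the second type. Its probe set 1385152_at read 9.06, 8.88, 8.81, 8.86 and 8.60 in PCN and 8.24, 8.44, 8.33 and 8.51 in corn oil livers, with no overlap (0.46 ± 0.10 SE, adjusted p = 0.0285, limma). A second and dimmer probe set of Eif4g1 on the same arrays, 1395702_at, went the other way without passing the test (-0.13 ± 0.06 SE, adjusted p = 0.198, limma), so the probe sets of this gene disagreed. When they were averaged the call was lost.

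Eif4g1 had 2 probe sets on the first type, at 0.36 (1388322_at, adjusted p = 0.0838) and 0.42 (1390340_a_at, adjusted p = 0.0823, limma). Probe set 1388322_at read 10.997, 10.62, 11.02, 10.99 and 10.74 in PCN and 10.52, 10.58, 10.43, 10.64 and 10.39 in corn oil livers, overlapping at PCN replicate 2. Eif4g2, a relative of eIF4G that does not bind the cap-binding protein, had 1 probe set without overlap (1367469_at). It read 11.80, 11.90, 11.81, 12.08 and 11.83 in PCN and 11.76, 11.59, 11.53, 11.67 and 11.72 in corn oil livers (0.23 ± 0.08 SE, adjusted p = 0.162, limma). Eif4e, the cap-binding protein itself, read 10.90, 10.54, 10.81, 10.88 and 10.68 in PCN and 10.48, 10.38, 10.62, 10.54 and 10.33 in corn oil livers (1398799_at). Only PCN replicate 2 fell within the corn oil range, and the difference of 0.30 ± 0.10 (SE) did not pass the test (adjusted p = 0.135, limma). A dim second probe set of Eif4e (1386997_at) was at -0.02. The Eif4e probe set of the second type (1394529_at) was at 0.09 ± 0.07 (SE, adjusted p = 0.421, limma).

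The 3 eIF4E-binding proteins, which compete with eIF4G for the cap-binding protein, had negative values, and Eif4ebp3 and Eif4ebp2 were the lowest of the eIF4 group. All 3 were measured on the first type, limma called 0 of them (1 lower at an unadjusted p under 0.05), and their median was -0.35. Eif4ebp2 read 10.54, 10.60, 10.93, 10.57 and 10.70 in PCN and 10.99, 11.32, 10.96, 10.88 and 10.94 in corn oil livers. PCN replicate 3 was the 1 PCN liver inside the corn oil range. The means were 10.67 ± 0.16 in PCN and 11.02 ± 0.17 in corn oil livers (SD, n = 5 each), with a log2 fold change of -0.35 ± 0.11 (SE), a p of 0.00805 and an adjusted p of 0.114 (limma). Of 23 alternatives it passed as lower under 4, all of them scalings, with adjusted p from 0.0323 to 0.0489 (limma). Each of these scalings also lowered the median of all probe sets, from 1e-04 to between -0.0794 and -0.0028, which favours falls. With 1 array left out at a time it passed 0 times of 10, and the adjusted p reached 0.244 without PCN replicate 1 (limma). Without corn oil replicate 2 it was -0.27 (adjusted p = 0.149, limma).

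Eif4ebp3 had the largest spread of the tested members, with 11.06, 11.69, 11.29, 10.88 and 11.03 in PCN and 10.65, 12.17, 11.52, 12.21 and 11.70 in corn oil livers. Corn oil replicate 1 was the lowest of all 10 arrays while corn oil replicates 2 and 4 were the highest, and the groups overlapped (-0.46 ± 0.26 SE, adjusted p = 0.402, limma). Without corn oil replicate 1 the difference was -0.71 (adjusted p = 0.069), and without corn oil replicate 4 it was -0.32 (adjusted p = 0.652, limma). Eif4ebp1, the best known mTORC1 target of the 3, lay at 9.43 to 9.61 in PCN and 9.42 to 9.80 in corn oil livers (-0.11 ± 0.10 SE, adjusted p = 0.600, limma). Averaged over the 3 genes, the PCN arrays lay at 10.33 to 10.58 and the corn oil arrays at 10.35 to 11.08, with corn oil replicate 1 inside the PCN range and the other 4 above it.

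**Figure D3:**
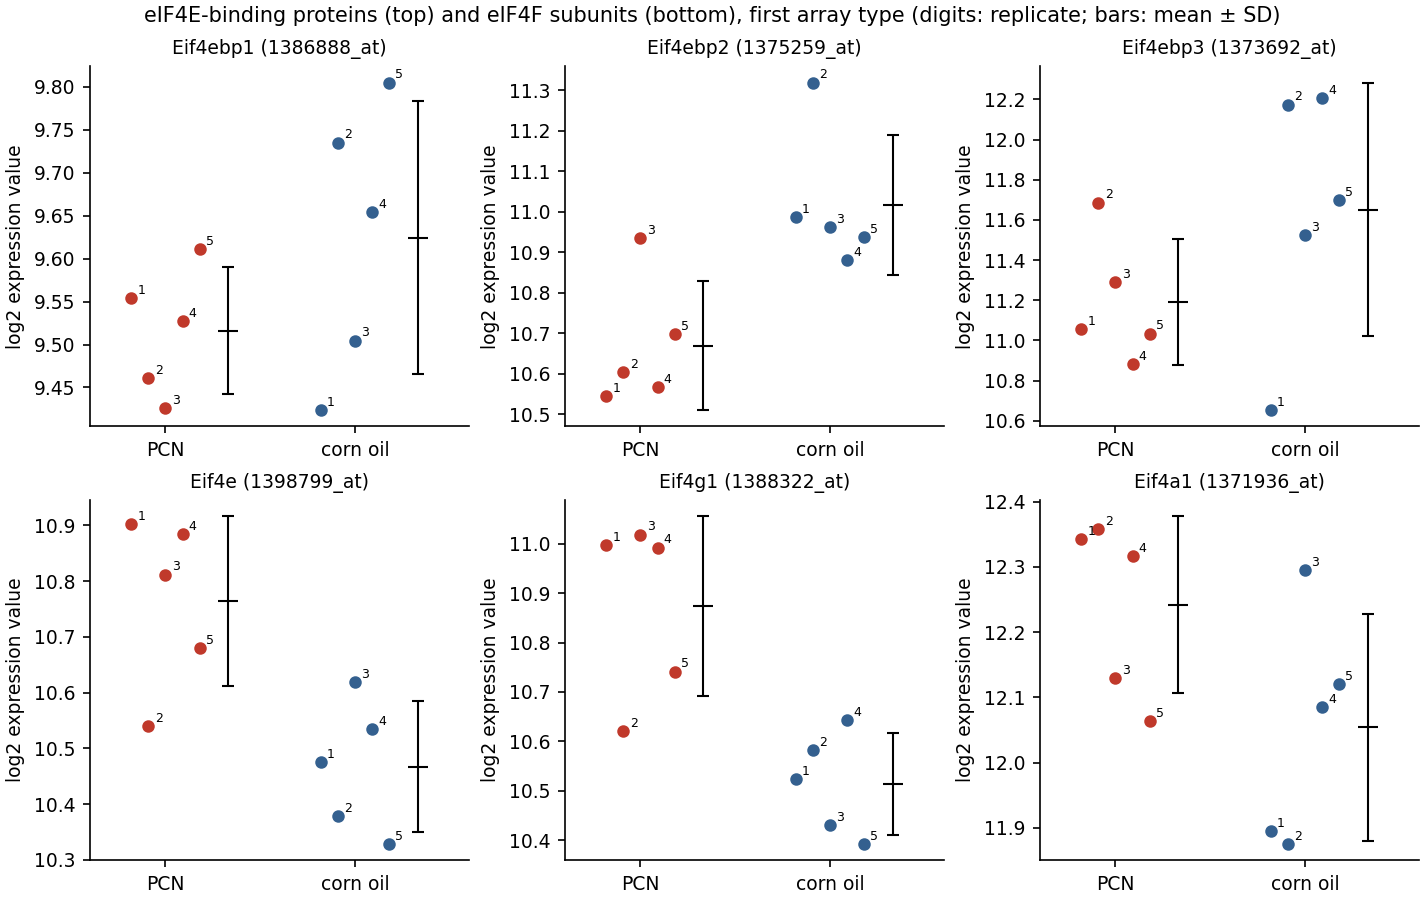
Log2 expression on each array of the first type, PCN left and corn oil right, for the eIF4E-binding proteins (top) and for a probe set each of Eif4e, Eif4g1 and Eif4a1 (bottom), with replicate numbers and bars for the mean ± SD. PCN means lie below corn oil means in the upper row (by 0.11, 0.35 and 0.46) and above them in the lower row (by 0.30, 0.36 and 0.19), with overlapping values in every panel. The lower row is a choice made after the values were seen. Of the 15 eIF4 probe sets other than binding proteins and transporter, 10 were positive and 5 negative. The lowest of these were Eif4a2 (-0.19) and Eif4g3 (-0.11).

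The remaining eIF4 factors did not pass the test. Of the helicases, Eif4a1 was at 0.19 and Eif4a3, better known for its place in the exon junction complex, at 0.11 on the first type. Eif4a2 was at -0.19 on the first type and at 0.31 on the second, with adjusted p of 0.530 and 0.163 (limma). The helicase cofactors Eif4b and Eif4h were at 0.02, -0.02 and 0.10 on the first type. On the second type Eif4g2 was at 0.41 (adjusted p = 0.0853), Eif4a3 at 0.34 (adjusted p = 0.0928) and the transporter Eif4enif1 at 0.32 (adjusted p = 0.0775, limma), and the 2 probe sets of Eif4h were at 0.26 and 0.22. Of Eif4e2 and Eif4e3, cap-binding relatives of Eif4e, Eif4e2 was at 0.22 and Eif4e3 at -0.08 on the first type. Eif4e3 was at 0.06 on the second, and Eif4g3 was at -0.11 on the first type and 0.03 on the second. Leaving out the binding proteins and the transporter Eif4enif1, the group had a first-type median of 0.11 over 15 probe sets, with 10 positive.

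In the eIF5 and eIF6 groups limma called 0 members (1 probe set each of Eif5b and Eif6 was higher at an unadjusted p under 0.05). Eif5b, the subunit-joining GTPase, read 9.30, 9.0, 9.16, 9.49 and 9.11 in PCN and 9.03, 9.23, 9.02, 8.79 and 8.60 in corn oil livers (1388947_at, 0.28 ± 0.13 SE, adjusted p = 0.293, limma). It read 8.90, 9.08, 8.60, 8.15 and 8.54 in PCN and 8.06, 8.56, 8.25 and 8.53 in corn oil livers on the second type (1395237_at, 0.31 ± 0.17 SE, adjusted p = 0.259, limma), and a further probe set was at 0.26. Groups overlapped in each. Eif5a, which despite its name also acts in elongation, was at 0.0012 with an SE of 0.07, its values being 12.18 to 12.38 in PCN and 12.09 to 12.37 in corn oil livers. Eif6 read 11.14, 10.90, 11.36, 11.26 and 11.08 in PCN and 10.90, 10.93, 11.07, 10.79 and 10.72 in corn oil livers. PCN replicate 2 and corn oil replicate 3 made these overlap, with a difference of 0.26 ± 0.11 (SE, adjusted p = 0.218, limma).

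Averaged per array over each group's probe sets, the groups differed in how cleanly the livers separated. On the second type the 3 Eif1a probe sets averaged 7.91 to 8.36 in PCN and 7.66 to 7.81 in corn oil livers, and the 5 eIF3 probe sets averaged 8.09 to 8.44 in PCN and 7.80 to 8.08 in corn oil livers. Neither pair of ranges overlapped. All 3 of the Eif1a and 3 of the 5 eIF3 probe sets were among those called, so this separation in part restates the calls. The 2 eIF2 probe sets averaged 8.28 to 8.76 in PCN and 8.27 to 8.59 in corn oil livers, with overlap. The 2 eIF5 probe sets averaged 7.59 to 8.11 in PCN and 7.34 to 7.73 in corn oil livers, also with overlap. The 11 eIF4 probe sets averaged 8.01 to 8.29 in PCN and 7.82 to 8.03 in corn oil livers, where PCN replicate 5 lay below corn oil replicate 5. Over all 23 members the ranges were 8.03 to 8.31 in PCN and 7.79 to 8.02 in corn oil livers.

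Every group's ranges overlapped on the first type. The 10 eIF2 probe sets averaged 9.03 to 9.37 in PCN and 8.98 to 9.10 in corn oil livers, and PCN replicate 2 was the 1 PCN liver not above the corn oil range. The 19 eIF4 probe sets lay closest together, at 10.16 to 10.28 in PCN and 10.12 to 10.19 in corn oil livers. The medians by group were 0.24 for eIF1, 0.20 for eIF2, 0.17 for eIF3, 0.10 for eIF4, 0.14 for eIF5 and 0.26 for the single eIF6 probe set. For the second type they were 0.46, 0.14, 0.42, 0.26 and 0.28 for eIF1 to eIF5, and after centring on the common probe sets eIF2 turned to -0.14 and eIF4 to -0.02.

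**Figure D4:**
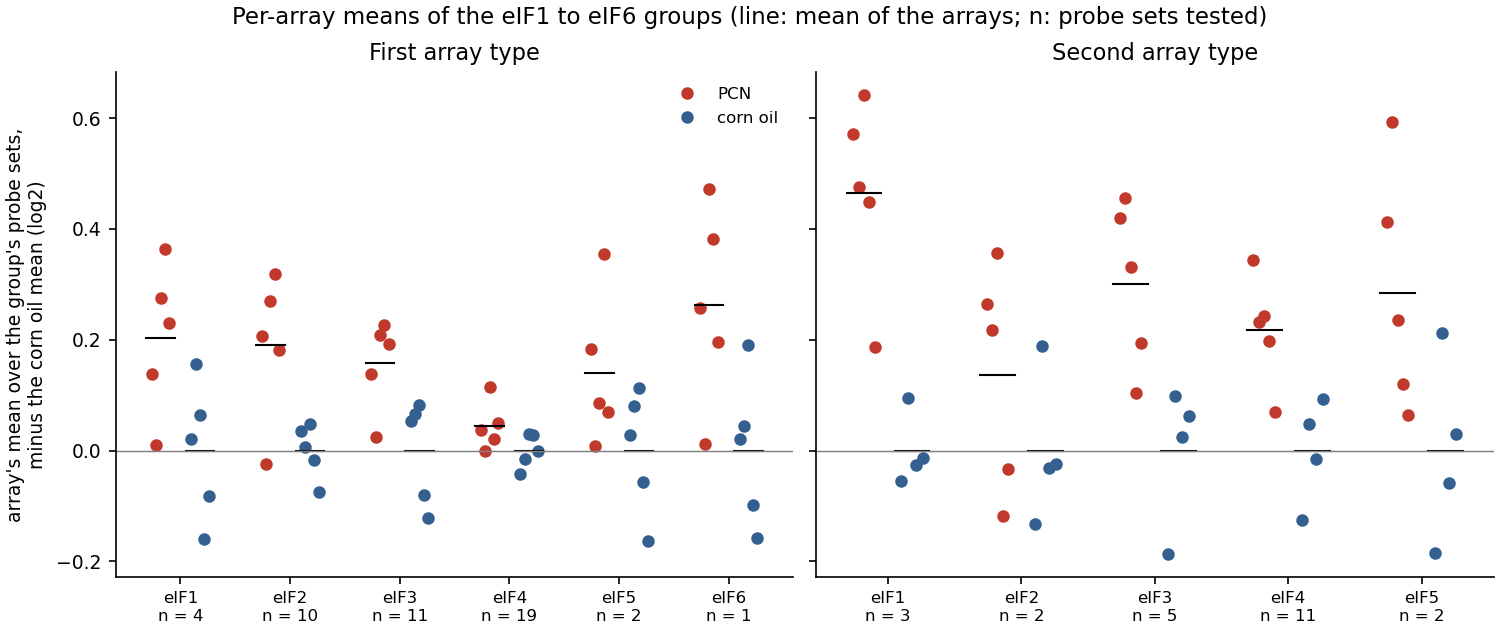
Mean log2 value of each array over a group's tested probe sets, minus the corn oil mean of that group, for the first (left) and second (right) array type, with PCN points left of corn oil points and lines at the means of the arrays. PCN and corn oil points separate for eIF1 and eIF3 on the second type, and the eIF4 groups of the first type lie closest together.

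Of the members, 17 genes were tested on both types, and each is compared through its brightest probe set. Their median log2 fold change was 0.17 on the first type (from -0.19 for Eif4a2 to 0.53 for Eif3j) and 0.31 on the second (from -0.11 for Eif3k to 0.50 for Eif3c), and the value was higher on the second for 14 of 17. Members whose very same probe set lies on both types showed this too, over the 9 animals that have both arrays: the difference on the first and second type was 0.13 and 0.34 for Eif4a3, 0.05 and 0.26 for Eif4h, and 0.14 and 0.32 for Eif4enif1. It was not particular to initiation factors. Of the 100 probe sets on both types, 98 had the higher difference on the second, with means of 0.11 and 0.28, so sizes are not comparable between the array types.

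**Figure D5:**
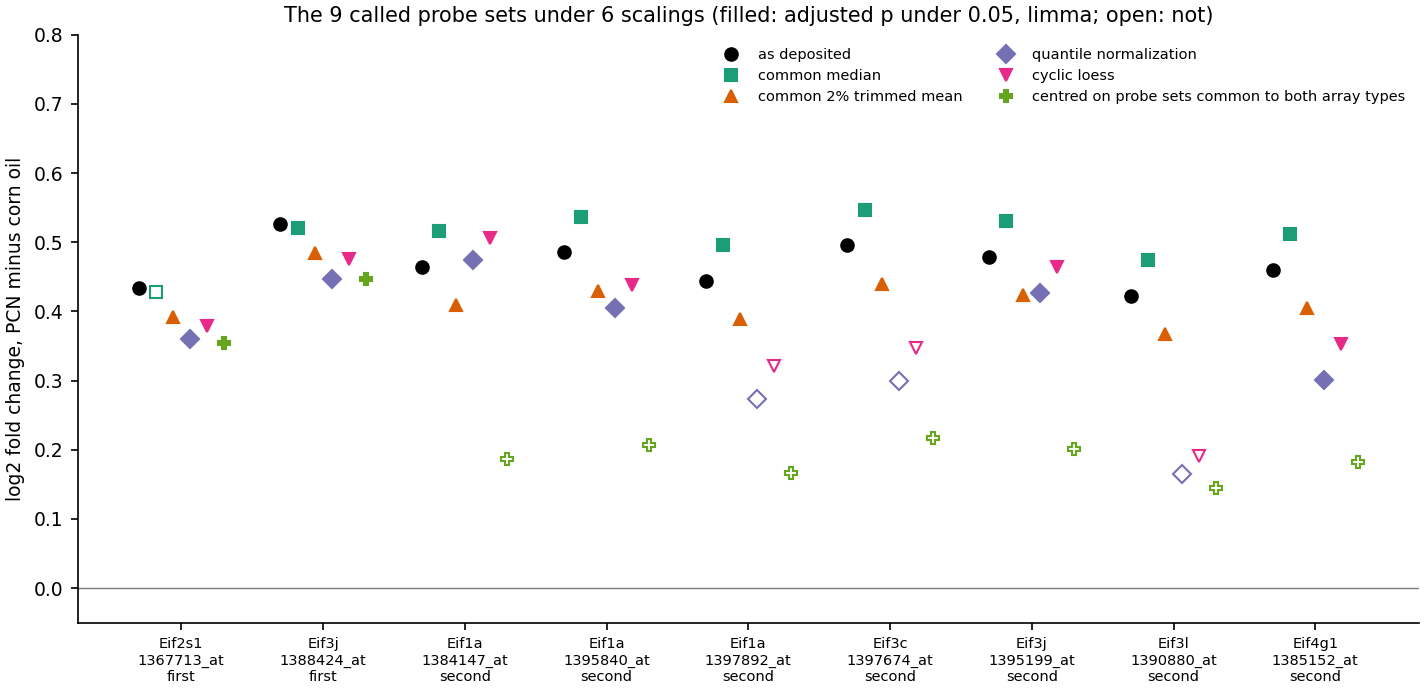
Log2 fold change, PCN minus corn oil, of the 9 probe sets that rose, under 6 ways of scaling the arrays, filled where the adjusted p was under 0.05. All values stay above 0, Eif3j of the first type is filled throughout, and centring on the common probe sets leaves all 7 of the second type open at 0.14 to 0.22.

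Genes that work with the initiation factors were counted from lists of 58 genes. On the first type 50 were tested, of which 3 rose and 0 fell, beside 2.31% and 0.945% of all probe sets tested, with a median of 0.11 beside 1e-04 for all. Denr, which with Mcts1 recycles ribosomes and supports reinitiation, rose 1.49-fold (0.57 ± 0.12 SE, adjusted p = 0.0271, limma). It read 8.80, 8.59, 9.01, 9.17 and 8.83 in PCN and 8.43, 8.51, 8.29, 8.23 and 8.07 in corn oil livers, with no overlap. Etf1, the release factor eRF1, rose 1.43-fold (0.52 ± 0.11 SE, adjusted p = 0.0279, limma). It read 10.80, 11.02, 11.03, 10.98 and 10.87 in PCN and 10.13, 10.70, 10.52, 10.34 and 10.41 in corn oil livers, likewise without overlap. Ppp1r15a, the phosphatase subunit that reverses phosphorylation of the Eif2s1 product, rose 1.46-fold (0.55 ± 0.10 SE, adjusted p = 0.0126, limma). It read 8.83, 8.72, 8.87, 8.92 and 8.60 in PCN and 7.99, 8.36, 8.23, 8.21 and 8.40 in corn oil livers.

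By list, 1 of 15 genes of the eIF2 kinases and integrated stress response rose, 0 of 13 of mTORC1 and MNK signalling to eIF4, 1 of 12 partners of initiation and 1 of 10 of elongation and termination. Their medians were 0.13, 0.09, 0.22 and 0.05, and limma called 0 lower in each, beside the 2.31% higher and 0.945% lower of all probe sets. At an unadjusted p under 0.05, 11 of the 50 were higher and 2 lower, beside 11% and 6.71% of all probe sets. By list in the order above, 5 of 15, 1 of 13, 3 of 12 and 2 of 10 were higher on that count. The 2 lower genes were both of elongation and termination. On the second type 12 were tested and 0 called, beside 3.76% higher and 1.64% lower of all probe sets of that type. At an unadjusted p under 0.05, 1 was higher and 0 lower, beside 13.2% and 14.1% of all. The smallest p there belonged to Ddx3x, an RNA helicase of initiation (0.37 ± 0.13 SE, adjusted p = 0.0992, limma), and to Pabpc4, a poly(A)-binding protein (0.28 ± 0.14 SE, adjusted p = 0.202, limma). Leaving out 1 array at a time, the call of Ppp1r15a held 10 of 10 times, that of Etf1 6 and that of Denr 4 times.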

How the data were processed

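Liver RNA of 5 PCN and 5 corn oil rats was measured on 2 Affymetrix array types, with 10 and 9 arrays analysed. The authors deposited 1 log2 value per probe set and array. MAS5 is named, without a version, in the submitters' processing notes, and the summarization and normalization are not given in the sources used here. The base was inferred: values reached 15.2 and 14.1, above the natural logarithm of the largest 16-bit reading (11.1) and below its log2 (16).

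Probe sets were named through the platform annotation and RefSeq symbols (GRCr8), which matched all 47 and 27 members. On the first type 12789 probe sets had 1 gene, 312 several and 2822 none, and on the second 7570, 100 and 7663. The 57 control probe sets of each type and those whose mean fell under the 30th percentile (6.67 and 5.51) were left out, leaving 11106 and 10693. Each type was fitted alone with limma 3.58.1 in R 4.3.3 (treatment, moderated variances with an intensity trend, two-sided, Benjamini-Hochberg over all probe sets tested, threshold 0.05), and the procedure was tested on simulated data. The number of arrays limits the precision.

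The members and the gene lists were chosen with earlier results of these data known. Array values are given for members past the threshold, for members whose groups did not overlap and for the largest change of each eIF group on each type. The first-type values of Eif3l, Eif4g1, Eif4e, Eif4a1, Eif4ebp1 and Eif4ebp2 were added after their values were seen. Genes outside the members are named where past the threshold, or by the 2 smallest p where none was. Alternatives were other filters, scalings, variance models, array weights, a pseudocount of 16, gene means, the replicate number as a block and leaving out each array. Cyclic loess was chosen after seeing the data.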

Additional observations from a re-analysis of the deposited data

Results flagged for a closer look

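Of 80 groups of replicates checked, 3 held a sample far from the others by Dixon's criterion, which chance meets in about 1 of 20 groups. All were on the first array type. Eif2s1 read 9.69 in corn oil replicate 4, below the 9.93 to 10.02 of the other corn oil livers. Without that array the rise of Eif2s1 was 0.35 with an adjusted p of 0.114 (limma), against 0.43 and 0.0443 with it. Eif4ebp2 read 11.32 in corn oil replicate 2, above the 10.88 to 10.99 of the other corn oil livers, and without it the log2 fold change was -0.27 in place of -0.35. Eif3l (1398929_at) read 11.1 in PCN replicate 2, below the 11.47 to 11.59 of the other PCN livers. The cause of each was not tested.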

How the results depend on the processing

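On the first array type, with 2 members called as deposited, 1 was called with no filter, after scaling to a common median or with the replicate block, 7 with array weights, 4 of 42 genes with gene means, and 0 to 4 when single arrays were left out. On the second, with 7 called, 4 were called after quantile normalization, after cyclic loess or with gene means, 2 with the replicate block, and 2 after centring on the common probe sets (0 higher and 2 lower, Eif3k at -0.39 and Eif4g1 1395702_at at -0.40). Without single arrays of that type 0 (without corn oil replicate 4) to 10 (without PCN replicate 5) were called. These counts are given without the share of all probe sets called under the same setting. The replicate numbers were not taken to pair animals, since the labels do not say that they do. Deviations of same-numbered arrays correlated at -0.30 to 0.28 on the first type and 0.02 to 0.20 on the second. These are too few values to settle pairing. Under the block the calls of Ppp1r15a (adjusted p = 0.0581) and Denr (adjusted p = 0.0808) were lost. The members' median kept its sign under every alternative: it was 0.083 after centring on the first type, and 0.17 after quantile normalization, 0.19 after cyclic loess and 0.032 after centring on the second. For eIF3 on the second type those 3 gave 0.25, 0.28 and 0.14. The eIF4 median on the first type was 0.0565 after scaling to a common trimmed mean, 0.033 after quantile normalization, 0.0191 after centring, and 0.056 to 0.15 without single arrays. On the second it was 0.14 after quantile normalization, 0.15 after cyclic loess, -0.017 after centring, and 0.15 (without corn oil replicate 1) to 0.31 without single arrays. Centring on the second type also gave 0.19 for eIF1, -0.14 for eIF2 and 0.0062 for eIF5. Eif2s3 (1397693_at) turned to -0.04 after quantile normalization and -0.12 after centring. The dim Eif4e probe set (1386997_at), at -0.02, turned to 8e-04 after quantile normalization and 0.017 after cyclic loess, and lay between -0.057 and 0.022 without single arrays. Causes were not tested. Calls lay near the threshold: of 23 alternatives Eif3j of the first type passed 18 and Eif2s1 11, and of 22 on the second type Eif1a 1395840_at passed 20 and the other 6 probe sets 11 to 14. A probe set's brightness and the number of arrays limit what can be called.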

Other observations

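Over the 17 genes tested on both array types, taken at their brightest probe sets, the PCN animals did not keep 1 order. On the first type their means were 10.32, 10.22, 10.43, 10.44 and 10.35 in PCN replicates 1 to 5, and on the second 8.56, 8.50, 8.46, 8.31 and 8.28. PCN replicate 4 was thus the highest on the first type and the next to lowest on the second, and PCN replicate 2 was the lowest on the first. Corn oil means were 10.27, 10.21, 10.24, 10.13 and 10.09 on the first type, and 8.00, 8.22, 8.12 and 8.24 in replicates 1, 3, 4 and 5 on the second. Corn oil replicate 1 was the highest of its group on the first type and the lowest on the second.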
